A study of Saccharomyces cerevisiae with 14 samples.

Results

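The genes described here are 10 budding yeast genes that depend on the transcription factor Bas1, 6 of purine nucleotide synthesis (ADE4, ADE2, ADE1, ADE13, ADE17 and ADE12) and 4 of one-carbon metabolism (MTD1, GCV1, GCV2 and GCV3). They were taken by name, with earlier results of these data known. Each had 1 probe set annotated to it alone, so that 10 of the 9275 yeast probe sets on the array were used, and 10 of the 5656 genes measured by such a probe set. The 14 arrays were Affymetrix YG_S98 chips hybridized with total RNA from congenic strains in mid-log growth in a complete synthetic medium. In H3del (4 arrays) histone H3 lacked residues 1 to 28 of its tail, and H3WT (4 arrays) carried full-length H3. In both of these strains H3 was on a plasmid marked with LEU2, and the medium lacked leucine and uracil. In H4del (3 arrays) histone H4 lacked residues 2 to 26, and H4WT (3 arrays) carried full-length H4. In both of these strains H4 was on a plasmid marked with TRP1, and the medium lacked tryptophan and uracil. Whether replicates are separate cultures or clones is not stated in the labels, so the p-values cover array-to-array spread that could be technical, and 3 or 4 arrays per group limit the precision of every value.

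Purine nucleotides are built onto phosphoribosyl pyrophosphate (PRPP) in a chain of enzyme steps that ends at IMP, the common precursor of AMP and GMP. Bas1, together with the homeodomain protein Pho2, activates the genes of this chain when adenine is scarce and intermediates of the pathway accumulate. The same factors act on genes of glycine and folate metabolism, which supply the glycine and the one-carbon units that the purine ring is made from. The glycine cleavage complex of mitochondria breaks glycine down and passes a one-carbon unit to tetrahydrofolate, with GCV1, GCV2 and GCV3 encoding its T, P and H proteins and LPD1 its L protein.

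A signal is the deposited MAS5 value of a probe set on a linear scale, which gives a gene's share of the array's total brightness rather than RNA per cell, and in RNA of whole cultures fewer cells that express a gene and less of its RNA per cell cannot be told apart. Fold changes are differences of group means of log2(signal + 16.9), fitted with limma over the 6492 probe sets that were bright enough to test, with limma's standard error. A probe set was called changed at a Benjamini-Hochberg adjusted p under 0.05 over all 6492. All 10 genes were among those tested, with group mean signals between 586 and 23275. On the same arrays the mitochondrial transcripts OLI1 and COX1 had signals of 1.1 to 4.8 in H4del, against 1174 to 9737 in H4WT, and HMRA1, of the silent mating-type locus, 475.6 to 935.1 in H4del against 6.1 to 52.8 in H4WT. In the H3 strains OLI1 and COX1 had 1325 to 7071 in H3del and 1046 to 7717 in H3WT. In H4del, changes of the 10 genes with the tail itself and with the low mitochondrial transcripts or the raised HMRA1 cannot be told apart. The ratio of 3 prime to 5 prime actin signal, a sign of RNA quality, was 1.54 to 2.89 in H3del, 1.56 to 2.15 in H3WT, 1.54 to 1.99 in H4del and 1.48 to 1.82 in H4WT. The same ratio of the TBP control, for the TATA-binding protein, was 3.84 to 4.94 in H3del, 1.30 to 4.20 in H3WT, 3.21 to 4.68 in H4del and 2.68 to 3.20 in H4WT. It was thus higher in H4del than in H4WT without overlap, H4del replicate 3 having the highest value of the H4 strains, and the part of RNA quality in the results was not tested.

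H4del was set against H4WT to see which transcripts change when the H4 tail is removed. Of the 10 genes 8 fell and none rose, 5 of the 6 purine genes and 3 of the 4 one-carbon genes. Because the genes were chosen with earlier results known, the shares and medians beside these counts are a description, not an independent test. Among all tested probe sets 9.67% were called lower, and among the 3577 at least as bright as the dimmest of the 10 genes 11.8% were. The log2 fold changes of all 10 genes were negative, from -1.49 to -0.51 with a median of -0.79, where the median over all tested probe sets was -0.08. For 7 of the 10 genes every H4del array lay below every H4WT array, which held for 19.0% of all tested probe sets.

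**Figure D1:**
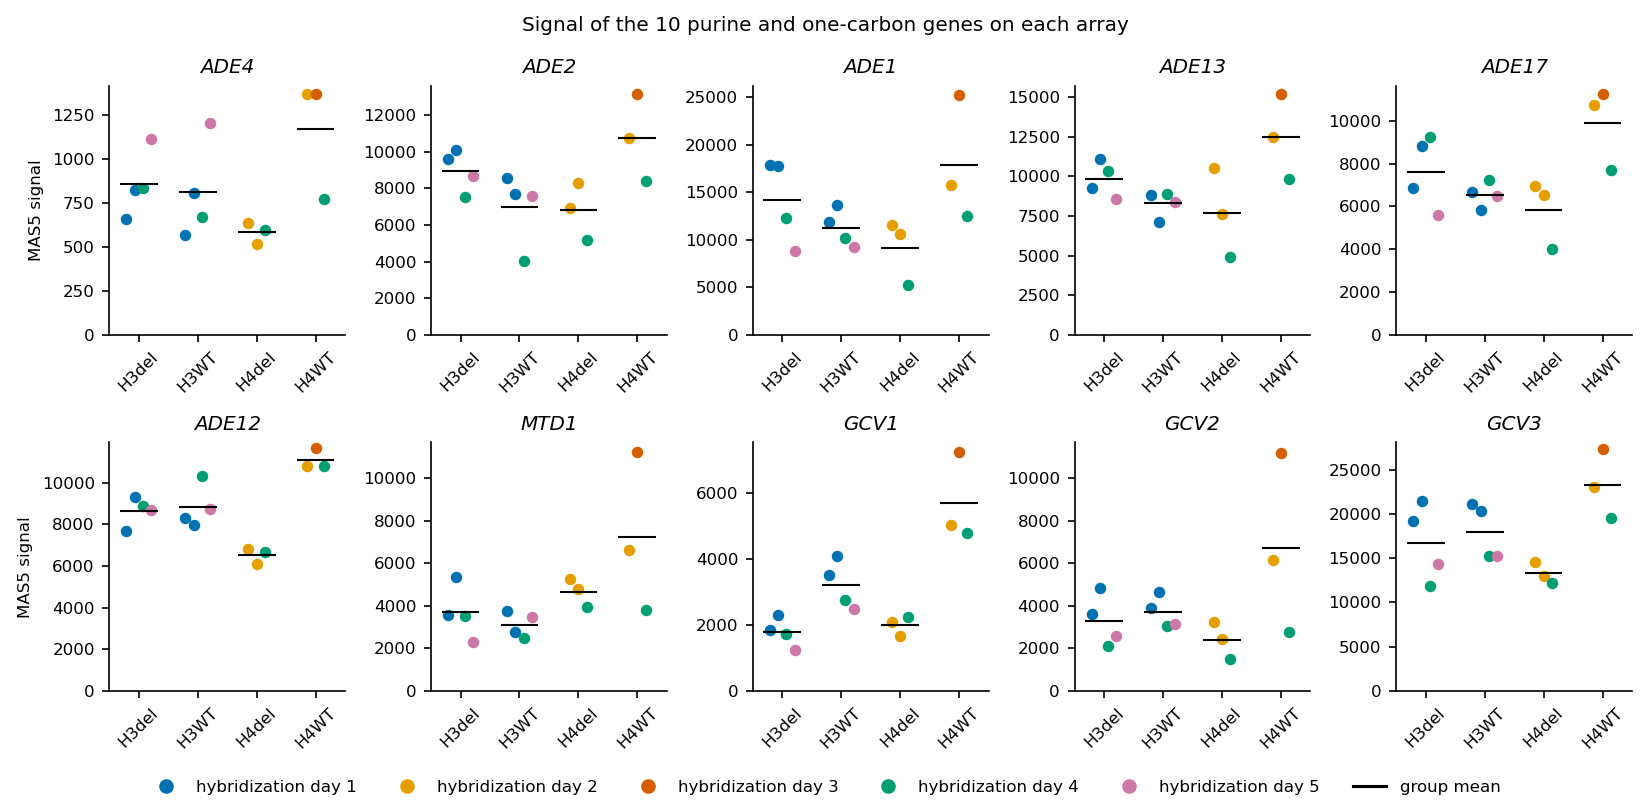
MAS5 signal (vertical axes, linear, from 0) of each of the 10 genes on every array of H3del, H3WT, H4del and H4WT, with points coloured by hybridization day and bars at the group means. H4WT has the highest mean in every panel, and its array of hybridization day 3 is the highest of all 14 in each.

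Among the purine genes, ADE4 encodes the amidotransferase of the first committed step, which adds an amino group to PRPP and is inhibited by the pathway's products. Its signals were 638, 520 and 600 in H4del, against 1373, 1375 and 775 in H4WT. The 3 H4del arrays lay close together and below all H4WT arrays, of which replicate 3 was clearly lower than the other two. The log2 fold change was -0.94 ± 0.29 (SE, limma adjusted p = 0.0345).

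ADE2 and ADE1 encode the enzymes of consecutive later steps, the carboxylation of aminoimidazole ribotide and the addition of aspartate to the product. ADE2 had signals of 6948, 8291 and 5205 in H4del, against 10752, 13139 and 8394 in H4WT. The groups did not overlap, though H4del replicate 2 and H4WT replicate 3 nearly met, and the change of -0.66 ± 0.26 did not pass (limma adjusted p = 0.0933). It passed with the replicate number as a block (adjusted p = 0.00551) and with the hybridization day as a block (-0.58, adjusted p = 0.0197). ADE1 had signals of 11596, 10583 and 5203 in H4del, against 15802, 25188 and 12482 in H4WT. It fell by 0.99 on the log2 scale, close to the threshold (SE 0.32, limma adjusted p = 0.0475), and replicate 3 was the lowest array of both groups. Without H4del replicate 3 the ADE1 change was -0.62 (adjusted p = 0.196).

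ADE13 encodes adenylosuccinate lyase, which acts both on the way to IMP and on the way from IMP to AMP. Its signals were 10550, 7603 and 4928 in H4del, against 12462, 15189 and 9848 in H4WT. H4del replicate 1 was above H4WT replicate 3, so the groups overlapped, and the log2 fold change was -0.74 ± 0.23 (limma adjusted p = 0.0366), or -0.46 without H4del replicate 3 (adjusted p = 0.152). ADE17 encodes the bifunctional enzyme that completes the purine ring and closes it to IMP. Its signals were 6968, 6556 and 4000 in H4del, against 10736, 11270 and 7725 in H4WT, with no overlap and a log2 fold change of -0.78 ± 0.23 (adjusted p = 0.0320). ADE16, which encodes the other form of this enzyme, had -0.18 ± 0.27 (adjusted p = 0.689), and whether the probes of these related genes also bind each other's RNA was not tested.

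ADE12 encodes adenylosuccinate synthase, the enzyme that commits IMP to AMP. It had signals of 6834, 6103 and 6662 in H4del, against 10818, 11672 and 10811 in H4WT. Its arrays were the tightest of the 10 genes in the H4 strains, with 6533 ± 382 in H4del and 11101 ± 495 in H4WT (SD, n = 3 each). The log2 fold change of -0.76 ± 0.14 had an adjusted p of 0.00224 in limma, the smallest of the purine genes.

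Among the glycine cleavage genes GCV1, the aminomethyltransferase or T protein, had signals of 2080, 1652 and 2236 in H4del, against 5036, 7235 and 4773 in H4WT. All H4del arrays lay well below the H4WT arrays, and the log2 fold change of -1.49 ± 0.25 (limma adjusted p = 0.00141) was the largest of the 10 genes. GCV2, the glycine decarboxylase or P protein, had 3248, 2464 and 1488 in H4del, against 6156, 11196 and 2784 in H4WT. The groups overlapped, because H4WT replicate 3 was lower than H4del replicate 1, and the wild-type arrays were spread widely. Its log2 fold change was -1.33 ± 0.42 (adjusted p = 0.0411), or -0.85 without H4WT replicate 2 (adjusted p = 0.196). GCV3, the lipoic acid-carrying H protein, had 14598, 13025 and 12198 in H4del, against 23016, 27305 and 19504 in H4WT, with no overlap and a log2 fold change of -0.80 ± 0.21 (adjusted p = 0.0168). LPD1, whose product is shared with other mitochondrial dehydrogenase complexes, also fell, by 0.64 on the log2 scale (SE 0.18, adjusted p = 0.0266), with signals of 10614, 7649 and 7445 in H4del against 9847, 15816 and 14818 in H4WT. H4WT replicate 1 of LPD1 lay among the H4del values, and the call was lost with the day as a block (-0.50, adjusted p = 0.0705).

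MTD1 encodes the cytoplasmic NAD-dependent methylenetetrahydrofolate dehydrogenase. Its signals were 5246, 4782 and 3929 in H4del, against 6643, 11239 and 3786 in H4WT. The H4WT arrays ranged more widely than for any purine gene in relation to their mean and reached below all of H4del. The log2 fold change of -0.51 ± 0.34 did not pass (limma adjusted p = 0.330), nor did it with the replicate number (adjusted p = 0.180) or the day (-0.21, adjusted p = 0.572) as a block. It was -0.12 without H4WT replicate 2 (adjusted p = 0.862) and -0.90 without H4WT replicate 3 (adjusted p = 0.0486).

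**Figure D2:**
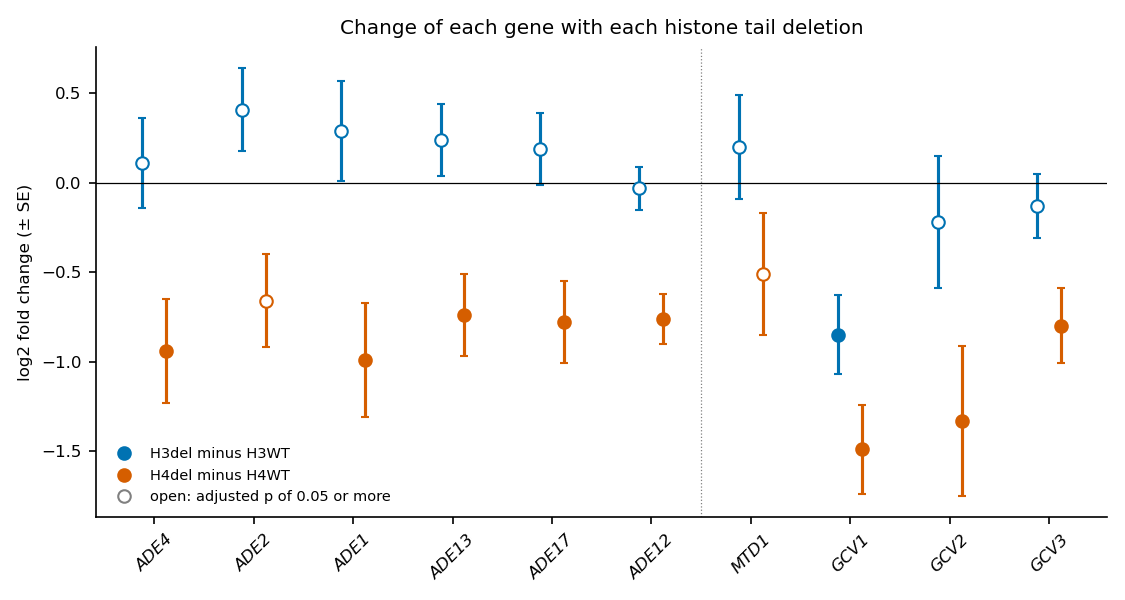
Log2 fold change (vertical axis, with limma's standard error as bars) of each gene in H3del against H3WT (blue) and in H4del against H4WT (orange), filled where the adjusted p was under 0.05. All 10 orange points lie below 0 and 8 are filled, and GCV1 is the only filled blue point, at -0.85.

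The H4del counts rested on a few arrays. H4WT replicate 2, the one array of hybridization day 3, had the highest signal of all 14 arrays for each of the 10 genes, and H4del replicate 3 had the lowest for 4 of them. How often this held among all probe sets is not given here. Without H4WT replicate 2 only GCV1 (-1.31, limma adjusted p = 0.00955) and ADE12 (-0.73, adjusted p = 0.0127) stayed past the threshold, the median of the 10 genes was -0.69, and the share of all probe sets called lower was 4.70%. Without H4del replicate 3 GCV1 and ADE12 were again the 2 called, with a median of -0.68 and 6.87% of all probe sets called lower. Without H4WT replicate 1 and without H4del replicate 2, 3 genes were called in each case, where 4.98% and 5.19% of all probe sets were called lower. Without H4WT replicate 3 all 10 were called, where 13.4% were.

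The fits with a block called more. With the hybridization day as a block, a fit in which H4WT replicate 2 carries no weight because it is alone on its day, 9 of the 10 genes fell, all but MTD1, where 17.3% of all probe sets were called lower. With the replicate number as a block the same 9 fell, where 18.8% of all probe sets were called lower. Within day 2, which held H4del replicates 1 and 2 and H4WT replicate 1, all 10 genes were lower in H4del, with a median log2 difference of -0.70 against -0.12 over all probe sets. Within day 4, which held replicate 3 of both groups, 9 of the 10 were lower, with a median of -0.80 against -0.02, and MTD1 had 0.05. Between these days ADE4 differed most, at -1.23 on day 2 and -0.36 on day 4, followed by ADE1 at -0.51 and -1.26, whereas ADE12 (-0.74 and -0.70) and GCV3 (-0.74 and -0.68) were nearly alike.

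**Figure D3:**
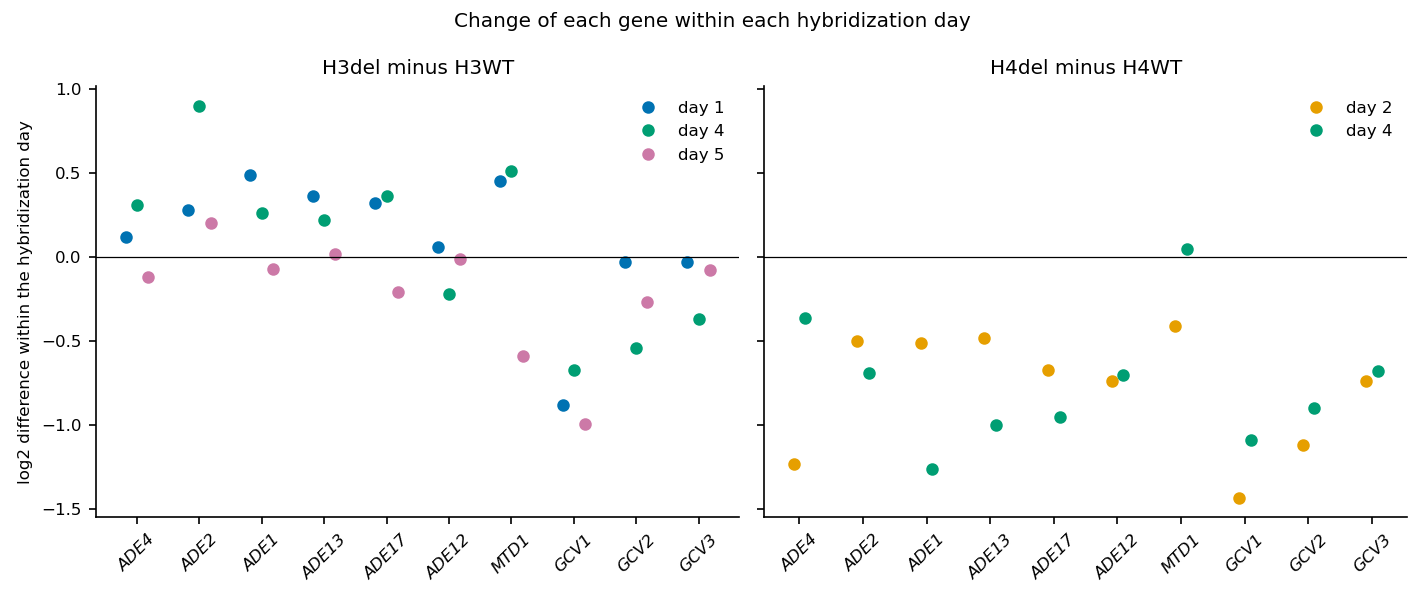
Log2 difference between mutant and wild-type arrays hybridized on the same day (vertical axis) for each of the 10 genes, for H3del minus H3WT on days 1, 4 and 5 and for H4del minus H4WT on days 2 and 4. GCV1 is below 0 on every day in both comparisons, and in H4del MTD1 on day 4 is the one point above 0.

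H3del was set against H3WT to ask the same of the H3 tail. Of the 10 genes only GCV1 fell and none rose, where 2.46% of all tested probe sets were called lower and 5.21% higher. GCV1 had signals of 1839, 2294, 1734 and 1250 in H3del, against 3520, 4081, 2768 and 2494 in H3WT. The groups did not overlap, which held for 6.87% of all tested probe sets in this direction, and the log2 fold change was -0.85 ± 0.22 (limma adjusted p = 0.0223). The decrease was present on each day, at -0.88, -0.67 and -0.99 on days 1, 4 and 5. The call was lost without H3del replicate 1, H3del replicate 4, H3WT replicate 1 or H3WT replicate 2, and the gene stayed called with both blocks (adjusted p = 0.00293 with the replicate number and 0.000507 with the day).

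The other subunit genes of glycine cleavage did not pass. GCV2 had signals of 3610, 4860, 2094 and 2596 in H3del, against 3913, 4655, 3056 and 3139 in H3WT, a log2 fold change of -0.22 ± 0.37 (limma adjusted p = 0.808). GCV3 had 19145, 21491, 11858 and 14374 in H3del, against 21091, 20273, 15289 and 15242 in H3WT, or -0.13 ± 0.18 (adjusted p = 0.770). For both genes the arrays overlapped, and in both groups replicates 1 and 2, which shared a hybridization day, were the highest. MTD1 had 3587, 5346, 3526 and 2300 in H3del, against 3741, 2754, 2476 and 3481 in H3WT, or 0.20 ± 0.29 (adjusted p = 0.777), and the sign of its difference changed between days, with 0.45, 0.51 and -0.59.

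None of the 6 purine genes passed in H3del, and none did at an unadjusted p under 0.05. Their log2 fold changes lay between -0.03 and 0.41 with a median of 0.22, 5 of them above 0, where the median over all probe sets was 0.02. ADE2 had the highest, with signals of 9623, 10079, 7503 and 8697 in H3del, against 8594, 7670, 4012 and 7567 in H3WT. The lowest of its 4 H3del arrays lay under 3 of the H3WT arrays, while H3WT replicate 3 stood well below the rest. Its log2 fold change was 0.41 ± 0.23 (limma adjusted p = 0.337), and it passed with the day (adjusted p = 0.0353) or the replicate number (adjusted p = 0.0467) as a block, with 0.28, 0.90 and 0.20 on days 1, 4 and 5. With these blocks 11.3% and 9.33% of all probe sets were called higher.

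ADE1 had signals of 17922, 17797, 12281 and 8859 in H3del, against 11836, 13616, 10224 and 9287 in H3WT, and ADE13 had 9273, 11102, 10311 and 8540 in H3del, against 8802, 7141, 8874 and 8410 in H3WT. ADE1 was higher in H3del than in the H3WT array of the same number for 3 of 4 numbers and ADE13 for 4 of 4, the groups overlapped in both genes, and neither passed, with log2 fold changes of 0.29 ± 0.28 and 0.24 ± 0.20. ADE17 averaged 7632 ± 1724 in H3del and 6555 ± 582 in H3WT (SD, n = 4 each). ADE4 averaged 857 ± 189 in H3del and 814 ± 280 in H3WT, and ADE12 8652 ± 679 and 8839 ± 1042 in the same order. For these 5 genes limma's adjusted p ranged from 0.576 (ADE13) to 0.932 (ADE12).

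The difference between the effects of the tails was tested as the H3del change minus the H4del change, where a positive value means that the gene was lower by more, or higher by less, in H4del. All 10 values were positive, from 0.64 for GCV1 to 1.28 for ADE1, with a median of 0.98 where the median over all probe sets was 0.10. Only ADE12 passed, at 0.74 ± 0.18 (limma adjusted p = 0.0330), where 2.40% of all probe sets were called higher. ADE13, ADE17 and ADE2 had 0.98 ± 0.30, 0.98 ± 0.31 and 1.07 ± 0.34 with adjusted p = 0.0821, 0.0884 and 0.0929. With the replicate number as a block 8 genes passed, all but MTD1 and GCV1, where 9.87% of all probe sets were called higher, and the same 8 passed with the day as a block, where 10.5% were. The ADE12 call was lost without H4WT replicate 2 (adjusted p = 0.0824) and also without H4WT replicate 1, H4del replicate 1 or 2, H3del replicate 2 or 4, or H3WT replicate 1 or 2. GCV1, the gene that fell in both deletions, had a difference of 0.64 ± 0.33 that did not pass in any of these fits (adjusted p = 0.0931 with the replicate number and 0.177 with the day).

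The wild types differ in plasmid marker and in the amino acid left out of the medium. All 10 genes had lower means in H3WT than in H4WT, with log2 fold changes between -1.09 and -0.33 and a median of -0.60, where the median over all probe sets was 0.03. No gene passed in limma, where 2.17% of all probe sets were called lower. An unadjusted p under 0.05 was reached by 6 of the 10. The share of all probe sets at that looser threshold is not given here. For 5 genes, namely ADE12, ADE13, ADE17, MTD1 and GCV1, every H3WT array lay below every H4WT array, which held for 5.84% of all probe sets. MTD1 had the largest difference, at -1.09 ± 0.32 (adjusted p = 0.0742), with H3WT arrays up to 3741 and H4WT arrays from 3786. GCV1 had -0.82 ± 0.23 (adjusted p = 0.0683). With the replicate number as a block MTD1, GCV1 and ADE2 passed, where 4.07% of all probe sets were called lower, and with the day as a block none did, MTD1 having -0.59 (adjusted p = 0.366). Day 4 was the one day that held both wild types, with replicate 3 of each. On these arrays 9 of the 10 genes were lower in H3WT, with a median of -0.25 against 0.06 over all probe sets. GCV2 had 0.13.

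Across the 4 groups H4WT had the highest mean log2 signal for all 10 genes, and H4del the lowest for 7. The exceptions were GCV1, lowest in H3del, and MTD1 and ADE2, lowest in H3WT. The shares of all probe sets with such orders are not given here. For 5 of the 6 purine genes H3del and H3WT stood between H4del and H4WT, and the arrays of H3del and H3WT overlapped for all 6. H4del also overlapped with H3WT in the purine genes other than ADE12, whose H4del arrays (6103 to 6834) lay below all H3WT arrays (7986 to 10330). For MTD1 the H4del arrays (3929 to 5246) lay above all H3WT arrays (2476 to 3741), H3del (2300 to 5346) spanned both, and H4WT replicate 3 (3786) lay below all of H4del. GCV1 was ordered by tail, with H3del (1250 to 2294) and H4del (1652 to 2236) side by side below H3WT (2494 to 4081), and H4WT (4773 to 7235) above these.

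**Figure D4:**
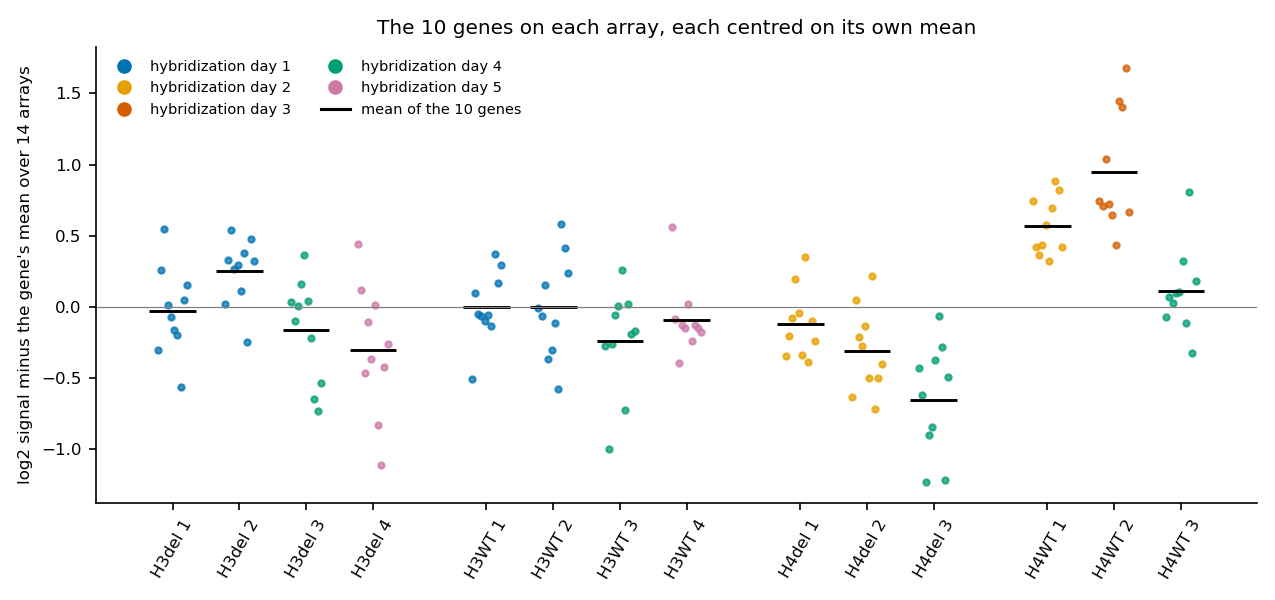
Log2 signal of each of the 10 genes minus that gene's mean over the 14 arrays (vertical axis), one point per gene and array, coloured by hybridization day, with a bar at the mean of the 10 genes. The mean is highest on H4WT replicate 2, at 0.95, and lowest on H4del replicate 3, at -0.65.

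To follow the genes as a group, each log2 signal was centred on its gene's mean over the 14 arrays. The mean of the 10 genes was -0.12, -0.31 and -0.65 on H4del replicates 1 to 3, against 0.57, 0.95 and 0.11 on H4WT. In the H3 strains it was -0.03, 0.25, -0.16 and -0.30 for H3del, against 0.00, -0.00, -0.24 and -0.09 for H3WT. The 4 arrays of day 4 were the lowest or second lowest of their groups, so that arrays of a day moved alike as well as arrays of a strain. GCV3, ADE13 and ADE17 followed this mean most closely, with root mean square differences of 0.187, 0.198 and 0.210 over the 14 arrays, and GCV1 and MTD1 departed from it most, with 0.473 and 0.386. A flat profile would have given 0.379.

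Of the 5111 other tested genes, the 5 with the smallest root mean square difference from the mean profile were CTP1, a mitochondrial citrate carrier, at 0.172, DBP10, an RNA helicase, at 0.190, SHM2, the cytoplasmic serine hydroxymethyltransferase, at 0.199, MRD1, a factor of ribosomal RNA processing, at 0.200, and DBP6, an RNA helicase, at 0.201. Their log2 fold changes follow from this choice and are given as a description only. They were -0.89 for CTP1, -0.74 for DBP6, -0.71 for MRD1, -0.62 for SHM2 and -0.55 for DBP10 in H4del, and between 0.04 and 0.16 in H3del. The likeness covers group, medium and hybridization day together.

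Other genes of the pathway were taken from lists of purine, one-carbon and histidine metabolism. Of 9 tested purine synthesis genes beyond the 10, ADE3, PRS2 and PRS5 fell in H4del and none rose, where 9.67% of all probe sets were called lower. The median was -0.51, and none passed in H3del. ADE3, the trifunctional enzyme that makes the one-carbon donor of the purine ring, had signals of 12535, 10314 and 9344 in H4del, against 16229, 16247 and 14769 in H4WT, and a log2 fold change of -0.56 ± 0.15 (limma adjusted p = 0.0186). PRS2 and PRS5, which encode PRPP synthetase subunits, had -0.98 ± 0.19 and -0.90 ± 0.17 (adjusted p = 0.00299 and 0.00308). For PRS5 the signals were 1691, 1638 and 2144 in H4del, against 3386, 3453 and 3370 in H4WT, 2 tight and separate groups. PRS2 and PRS5 remained called without H4WT replicate 2, and ADE3 did not (adjusted p = 0.0639). With the replicate number or the day as a block 6 of the 9 fell, adding ADE6, ADE8 and PRS3, where 18.8% and 17.3% of all probe sets were called lower.

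Of 20 other one-carbon, serine and glycine genes 6 fell and none rose in H4del, with a median of -0.58, where 9.67% of all probe sets were called lower. SER33, one of the paralogous phosphoglycerate dehydrogenases that begin serine synthesis, had signals of 2078, 1433 and 1385 in H4del, against 4852, 4297 and 4327 in H4WT, and a log2 fold change of -1.47 ± 0.22 (limma adjusted p = 0.000528). SER1, the next enzyme of that route, had -0.89 ± 0.23, MET6, methionine synthase, -0.84 ± 0.27, FOL1 of folate synthesis -0.80 ± 0.20, LPD1 -0.64 ± 0.18 and MET12, a methylenetetrahydrofolate reductase, -0.61 ± 0.19, with adjusted p between 0.0148 and 0.0417. The less bright FOL1 probe set had -0.20 ± 0.40. Without H4WT replicate 2 only SER33 of these 6 remained called, and with the replicate number as a block 13 of the 20 fell, where 18.8% of all probe sets did. With the day as a block 10 fell, LPD1 not among them, and SER3 rose. Among all probe sets 17.3% fell in that fit, and 809 of 6492 rose.

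In H3del 2 genes of that list rose and 1 fell, where 5.21% of all probe sets were called higher and 2.46% lower. With either block the same 2 rose, where 9.33% (replicate number) and 11.3% (day) of all probe sets were called higher. With either block 3 fell, FOL1, MET6 and MET13, where 6.76% and 9.33% of all probe sets were called lower. MET6 had -0.53 (limma adjusted p = 0.00664 with the replicate number and 0.00528 with the day). SER3, the paralog of SER33, had signals of 2243, 3225, 3752 and 2167 in H3del, against 974, 899, 1531 and 1165 in H3WT, and a log2 fold change of 1.30 ± 0.27 (limma adjusted p = 0.00609). AGX1, which makes glycine from glyoxylate, had 1662, 1329, 1231 and 1327 in H3del, against 726, 735, 421 and 519 in H3WT, or 1.21 ± 0.24 (adjusted p = 0.00451). All H3del arrays of both genes lay above all H3WT arrays. The share of all probe sets for which this held is not given here, and both genes were named for their call. FOL1 fell, with -0.64 ± 0.17 (adjusted p = 0.0344). In H4del SER3 had 0.51 ± 0.31 and AGX1 0.04 ± 0.28, and neither differed between the tails past the threshold (adjusted p = 0.305 and 0.0866). AGX1 did with the replicate number (1.18, adjusted p = 0.0326) or the day (1.36, adjusted p = 0.00707) as a block.

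**Figure D5:**
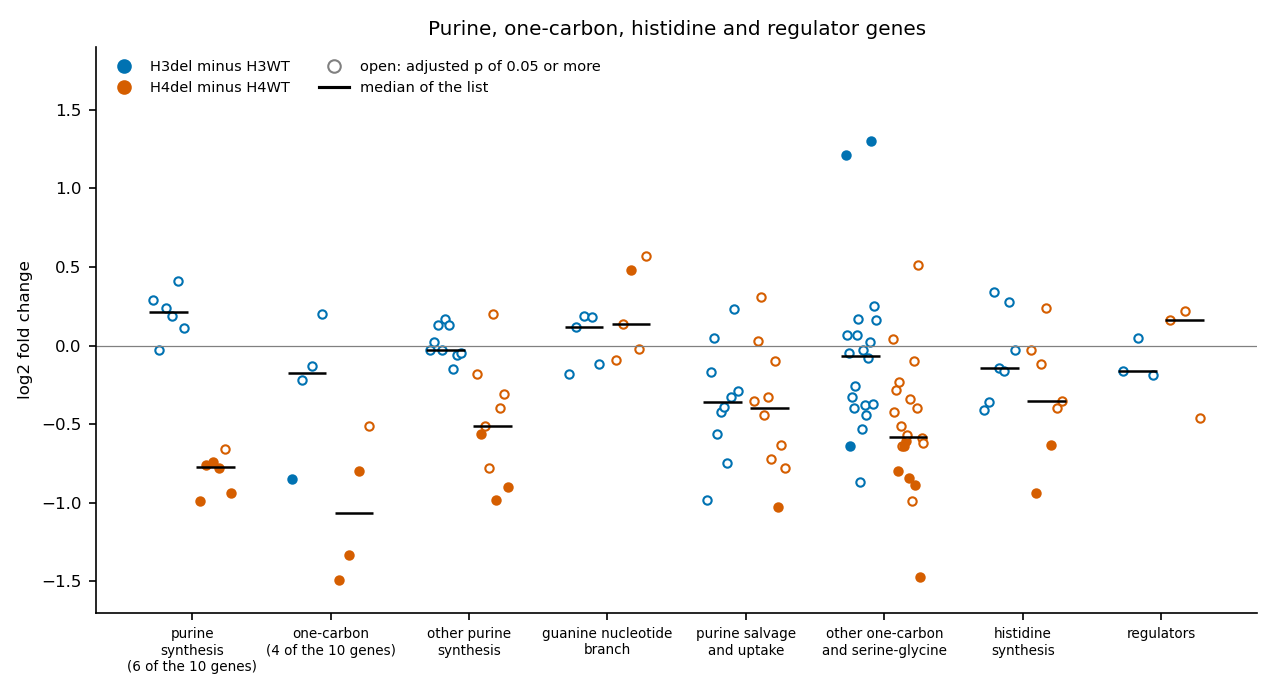
Log2 fold changes (vertical axis) of the 10 genes and of 6 further lists, 1 point per gene, for H3del against H3WT (blue) and H4del against H4WT (orange), filled where the adjusted p was under 0.05, with bars at the list medians. The orange medians of the 10 genes, at -0.77 and -1.07, lie below those of the other lists, which run between -0.58 and 0.16. The 10 genes and the lists were chosen with earlier results of these data known, so this order may follow from the choice.

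Of 10 purine salvage and uptake genes ISN1, the IMP 5 prime nucleotidase, fell in H4del (-1.03 ± 0.26, limma adjusted p = 0.0134), 1 gene of 10 where 9.67% of all probe sets were called lower. The list had a median of -0.40 in H4del and -0.36 in H3del. Of 5 genes of the guanine branch IMD2, an IMP dehydrogenase, rose in H4del, where 506 of all 6492 tested probe sets were called higher. Its brightest probe set had signals of 7244, 8848 and 8625 in H4del, against 6196, 5859 and 5552 in H4WT, with 0.48 ± 0.13 (adjusted p = 0.0183), and its other probe sets had 0.66 ± 0.20 and 0.82 ± 0.30 (adjusted p = 0.0372 and 0.0695). These probe sets are of a kind that can bind related sequences, and IMD3 and IMD4 are paralogs of IMD2. The brightest IMD2 probe set was also higher in H3WT than in H4WT (0.70 ± 0.12, limma adjusted p = 0.00328). Of 7 histidine genes, some of which Bas1 also activates, HIS2 (-0.94 ± 0.24) and HIS5 (-0.63 ± 0.17) fell in H4del (adjusted p = 0.0147 and 0.0214), beside the same 9.67%. The others were not called, with -0.03 ± 0.18 for HIS1, 0.24 ± 0.22 for HIS4 and -0.35 ± 0.27 for HIS7. HIS3 had -0.12 ± 0.17 and HIS6 -0.40 ± 0.20, and HIS6 was called lower with the day as a block. Which of the 7 depend on Bas1 was not tested. Without H4WT replicate 2 the ISN1, IMD2 and HIS2 calls were lost (adjusted p = 0.0684, 0.0530 and 0.0621), and with either block 4 of the 10 salvage and uptake genes fell, where 18.8% (replicate number) and 17.3% (day) of all probe sets did. In H3del AAH1 and HPT1 of this list fell with the replicate number as a block, and FCY2 as well with the day, where 6.76% and 9.33% of all probe sets did.

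The genes of the regulators did not pass in either deletion. BAS1 had signals of 1260, 1343 and 755 in H4del, against 1206, 1657 and 454 in H4WT, or 0.16 ± 0.37 (limma adjusted p = 0.801), and -0.16 ± 0.32 in H3del. PHO2 was dim, with 53.1 to 118 in H4del and 84.5 to 194 in H4WT, and had -0.46 ± 0.34 in H4del and -0.19 ± 0.29 in H3del. GCN4, the activator of amino acid synthesis genes, had 0.22 ± 0.13 in H4del and 0.05 ± 0.12 in H3del.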

How the data were processed

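The authors deposited 1 MAS5 signal intensity, linear, per probe set and array, a method named in the submitters' processing notes without a version. After 2% was trimmed from each end the array means were 1500.83 to 1501.18, so no rescaling was done. Hybridization days came from the deposited array records, per the file headers. Of 9335 probe sets 60 controls were dropped. Annotation gave 6504 of the rest 1 gene, 328 several and 2443 none. Before log2 an offset equal to the 10th percentile of signals was added, and probe sets at or under the 30th percentile of mean log2 signal were not tested.

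Tests used limma 3.58.1 (lmFit, then eBayes with a trend; R 4.3.3) on all 14 arrays, with a mean for each group. Alternatives were other offsets and filters, quantile normalization, no trend, blocks, and arrays left out. The 10 genes and all lists were chosen with earlier results of these data known. The text names the 10 genes, BAS1, PHO2 and GCN4, each listed gene whose brightest probe set was called in a tail deletion, and the 5 genes most alike in profile. ADE16, ADE6, ADE8, PRS3, IMD3, IMD4, MET13, SHM1, AAH1, HPT1, FCY2, HIS1, HIS3, HIS4, HIS6 and HIS7 were named after their values were seen. ADE5,7 was listed but not analysed here.

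Replicate numbers come from the sample titles. To check whether they pair arrays, deviations from group means were correlated. Pairs with the same number in different groups (19 pairs) gave 0.157 to 0.638, and the 9 of them on different days 0.157 to 0.502. The 3 pairs that shared a day but not a number gave 0.319 to 0.541. The 51 pairs sharing neither number nor day gave -0.466 to 0.305. Arrays of a day were thus alike as well as arrays of a number. The number (replicate block) and the day (day block) were each fitted in an alternative setting, while the main fit had no block. No pair of arrays had more than 0.343% of values identical. The main fit was tested on simulated data with independent noise on each array, without the deviations shared by arrays of a number or day. Of 100 probe sets changed 2-fold, 61% were recovered in H3del and 54% in H4del. Of 100 changed 4-fold, 96% and 93% were. Changes of 2-fold or less can thus be missed.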

Additional observations from a re-analysis of the deposited data

Results flagged for a closer look

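The test of the difference between the tails passed for ADE12 (0.74, H3del change minus H4del change on the log2 scale) among the 10 genes, and for PRS2 (1.11), PRS5 (0.86) and SER33 (1.10) among the other named genes. In each the change was larger in H4del. Of all tested probe sets 2.40% were called higher in this test. Apart from the regulators, the other named genes were picked for a call in a tail deletion. Their calls in the difference are not independent of that choice. With each of the 14 arrays left out in turn the call was lost 3 times for PRS2, 11 times for PRS5 and 11 times for SER33, and all 3 were lost without H4WT replicate 2 (limma adjusted p = 0.0574, 0.0950 and 0.0776). Quantile normalization also ended the calls of PRS5 (adjusted p = 0.0918) and SER33 (0.0615). The replicate block added ADE3, ADE8, AGX1, MET12, SER1, SHM1 and SHM2 of the purine synthesis and one-carbon lists, where 9.87% of all probe sets were called higher. Among 56 groups of 4 arrays examined, 2 held an array far from the others, where chance alone gives about 1 in 20. In H3del the lowest ISN1 array had a signal of 985, with the others at 1767 to 1770, and the highest BAS1 array had 811, with the others at 566 to 591.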

How the results depend on the processing

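All 10 genes kept a negative log2 fold change in H4del in each of the 23 other settings. The number called in H4del ranged from 2 to 10 when single arrays were left out, in H3del from 0 to 1, in the difference between the tails from 0 to 6, and between the wild types from 0 to 1. With the replicate block and with the day block 2 genes were called in H3del and 8 in the difference, and with the replicate block 3 between the wild types. Without a trend 0 were called in the difference. Leaving out the 4 arrays of day 4, a setting chosen after seeing the data, gave 5 in the difference and 5 between the wild types. Over all probe sets the replicate block called 606 higher and 439 lower in H3del (338 and 160 without it), 921 and 1223 in H4del (506 and 628), 641 and 394 in the difference (156 and 83) and 247 and 264 between the wild types (80 and 141). The day block called 732 and 606 in H3del, 809 and 1124 in H4del and 679 and 399 in the difference. Without day 4 the counts were 734 and 1040 in H4del, 507 and 241 in the difference and 315 and 354 between the wild types. The filter at the 50th percentile called 137 and 113 in H3del and 56 and 79 between the wild types, of fewer probe sets, and quantile normalization called 191 and 178 in the difference.

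Small values changed sign. In H3del, without day 4, ADE12 had 0.04 and ADE3 -0.01, and quantile normalization gave ADE3 and GCN4 -0.02. In H4del, without day 4, BAS1 had -0.12 and PHO2 0.11, and AGX1 had -0.15 with the day block. ADE17 had 0.07 between the wild types with the day block. With single arrays left out the H3del values ranged from -0.04 to 0.31 for ADE4, -0.07 to 0.05 for ADE12, -0.26 to 0.03 for GCV3, -0.06 to 0.10 for ADE3, -0.10 to 0.05 for PRS5, -0.24 to 0.07 for SER1 and -0.00 to 0.09 for GCN4. In H4del they ranged from -0.21 to 0.29 for AGX1 and -0.38 to 0.54 for BAS1. The cause of these changes was not tested.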
